A study of Mus musculus with 8 samples.

Results

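Interferon-stimulated genes were followed in myeloid cells of the injured mouse sciatic nerve. The set was a list of 44 gene symbols of known targets of interferon. Of the 30406 genes with a row in all 4 RNA libraries 43 were members, and all 43 passed the filter on low counts, which kept 11487 genes. The remaining member, Mx1, a GTPase whose intact form blocks influenza virus, had rows at 1 week and was not analysed here at 15 weeks. The study profiled CD45+/CD11b+ cells by single-cell RNA sequencing after partial sciatic nerve ligation (PSNL), in which a suture ties off part of the nerve and the injury does not resolve, after sciatic nerve crush, which allows regeneration, and after sham surgery, in which the nerve was exposed only. All mice were C57BL/6JolaHsd, of both sexes and bought at 7 weeks of age, with no transgene or drug in any group, and Ly6G+ neutrophils were excluded from the sort at 1 week. At 1 week the 6 samples were a sham male, a crush female and a crush male in 1 library, and a sham female, a PSNL female and a PSNL male in another. At 15 weeks the 7 samples were PSNL F1, F2, M1 and M2 in 1 library and crush F1, F2 and M1 in another, where F and M stand for female and male. Sham nerves of 15 weeks were not analysed here. Each sample was marked by 1 hashtag antibody, and whether a hashtag stands for 1 mouse or several is not stated, so the p-values below measure the spread between these samples only.

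Type I interferons (the alpha and beta families) bind a receptor made of IFNAR1 and IFNAR2, and the kinases JAK1 and TYK2 then activate transcription factors of the STAT family. Among these STAT2 acts in a complex with IRF9 that binds the interferon-stimulated response element (ISRE) in the promoters of its target genes. Many of the targets are antiviral proteins, and others, such as IRF7 and USP18, strengthen or dampen the pathway itself. Interferon gamma acts through another receptor and without that complex, and several members, such as Cxcl10 and the guanylate-binding proteins, respond to both.

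The promoters show a feature that many members share apart from the measured values. RefSeq promoter sequences (GRCm38.p6, from 250 bases before to 50 bases after the gene start) were found for 36 of the 44 members. Positions below refer to the start used there. In 30 of the 36 the last 25 bases lay in a transcript of the gene, and the start of the rest is less certain. For Ifi206, GENCODE M21 places the start at chr1:173491041 (minus strand), outside the promoter sequence used. Both strands were searched for the core of the ISRE, GAAANNGAAA or its reverse TTTCNNTTTC, with overlapping matches counted. Of the 36 promoters 23 held the core (63.9%), against 3.99% of 27025 promoters of all genes, and 8 held it at least 2 times, against 0.266% of all genes. Irf7, Ifit2, Oasl2, Cmpk2, Ifi44 and Slfn1 were among the members without a match. A match is a description of the letters and not evidence that a factor bound there.

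Windows in 4 sets are shown, with the bases of the match in capitals, for some of the genes described below. The first holds 3 well-known targets: Isg15 (chr4:156200860-156200911, minus strand), with 3 overlapping matches from -78 to -66 relative to the gene start, Rsad2 (chr12:26456548-26456587, minus strand), with a match at -120, and Oas3 (chr5:120777710-120777749, minus strand), with a match at -75.
Isg15: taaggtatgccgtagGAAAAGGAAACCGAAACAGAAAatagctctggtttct
Rsad2: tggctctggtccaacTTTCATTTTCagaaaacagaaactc
Oas3: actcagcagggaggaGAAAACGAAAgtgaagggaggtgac

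The second set comes from the Ifit cluster, since these genes differed strongly between the male and the female after crush. Ifit2, of the same cluster, also differed strongly but had no match and is not shown. The windows are those of Ifit1 (chr19:34640770-34640828, plus strand; matches at -104 and -85), Ifit3 (chr19:34583358-34583431, plus strand; matches at -156 and -122) and Ifit3b (chr19:34607754-34607827, plus strand; matches at -188 and -154). The windows of Ifit3 and Ifit3b were identical at 74 of 74 bases.
Ifit1: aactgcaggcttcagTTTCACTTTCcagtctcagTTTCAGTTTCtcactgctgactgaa
Ifit3: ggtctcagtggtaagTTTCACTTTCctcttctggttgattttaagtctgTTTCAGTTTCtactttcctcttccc
Ifit3b: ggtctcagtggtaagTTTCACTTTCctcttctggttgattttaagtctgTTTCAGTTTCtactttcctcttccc

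The third set shows the Ifi200 family, a row of neighbouring genes on chromosome 1, in which pairs of promoters are near copies. The windows of Ifi206 (chr1:173491334-173491373, minus strand; match at -40) and Ifi213 (chr1:173599321-173599360, minus strand; match at -73) were identical at 39 of 40 bases, and those of Ifi207 (chr1:173741826-173741865, minus strand; match at -41) and Ifi211 (chr1:173913059-173913098, minus strand; match at -37) at 33 of 40.
Ifi206: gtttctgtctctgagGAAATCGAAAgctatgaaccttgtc
Ifi213: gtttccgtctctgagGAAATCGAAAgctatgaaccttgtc
Ifi207: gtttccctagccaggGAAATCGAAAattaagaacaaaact
Ifi211: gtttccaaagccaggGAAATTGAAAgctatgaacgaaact

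The fourth set holds Bst2 (chr8:71537572-71537617, minus strand; matches at -130 and -124), a member with high counts in every sample, and Cxcl10 (chr5:92349078-92349117, minus strand; match at -213), whose pattern went against the other members.
Bst2: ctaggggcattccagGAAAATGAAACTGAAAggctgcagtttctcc
Cxcl10: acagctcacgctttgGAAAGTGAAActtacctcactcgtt

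Members also lie close together. By GENCODE M21 (GRCm38) 26 of the 44 lay within 1 Mb of the next member, among them the 7 Ifi200 genes (chr1:173468485-174031810), the 4 Ifit genes (chr19:34550694-34650009) and the 3 Schlafen genes (chr11:82951349-83122670). Reads of near-identical neighbours (Ifit3 and Ifit3b, the Ifi200 genes, Phf11b and Phf11d, the Oas1 and Gbp families) can be lost or split in counting, so single values of these genes are uncertain.

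The 13 samples held 64 to 1556 cells and 247765 to 15294306 UMIs, lowest in the sham female, and 1 to 3 cell barcodes were shared between any pair of libraries. Xist was at most 1.39 CPM in the males, and Ddx3y at most 1.35 CPM in the females, so the hashtags separated the sexes. Although Ly6G+ cells were excluded at 1 week, the 7 neutrophil markers summed to 13880 and 4728 CPM after PSNL (female and male), against 488.4 to 3536 CPM in sham and crush. The 2 crush samples of 1 week stood apart from each other in the interferon-stimulated genes, as described next, and the comparisons across all cells that use them are given with and without 1 of them. In sums over cells, a change in the number of cells of a type and a change of RNA per cell cannot be told apart. At 1 week PSNL and crush sat in separate libraries, and time coincided with batch, hashtag kit and the Cell Ranger version of the file headers. Levels are given as CPM (gene UMIs of a sample scaled to 1000000), not divided by gene length, so they are compared between samples and not between genes.

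The 43 members together took 0.146% of UMIs in the sham male and 0.133% in the sham female. After PSNL the share was 0.328% in the female and 0.406% in the male (mean 0.367% ± 0.0552, SD, n = 2), above both sham samples (0.139% ± 0.00905, n = 2). After crush it was 0.127% in the female, below both sham samples, and 0.840% in the male, the highest of all 13 samples. At 15 weeks the share was 0.236%, 0.184%, 0.141% and 0.0913% after PSNL (F1, F2, M1 and M2) and 0.118%, 0.15% and 0.0845% after crush (F1, F2 and M1). The 2 injuries therefore overlapped at both times. The 6 members with the highest mean CPM (Bst2, Ifi207, Slfn5, Trim30a, Ms4a4c and Ifi204) held 35.7 to 60% of the member UMIs of a sample, so the share leans on them, and single genes are described below.

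**Figure D1:**
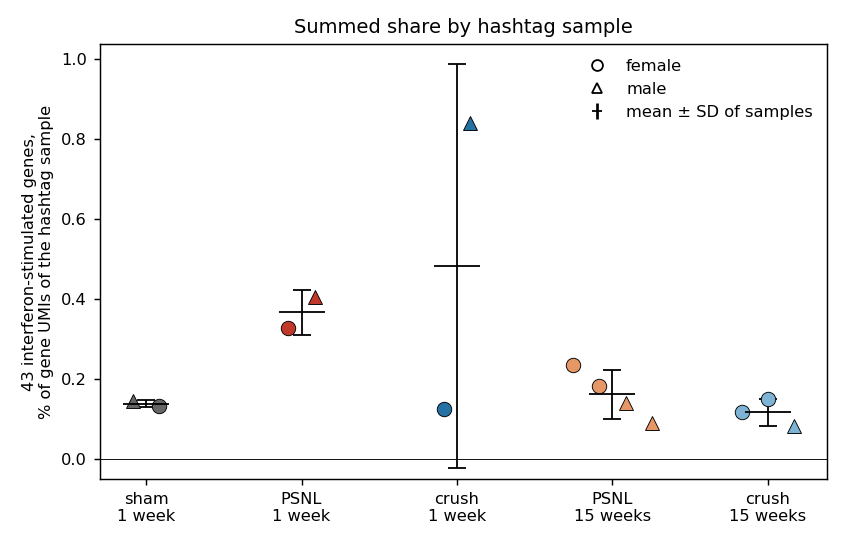
Share of gene UMIs from the 43 members (percent, vertical axis, from 0) in each of the 13 hashtag samples, grouped by surgery and time, with circles for females, triangles for males and bars for the mean ± SD of each group. The crush male of 1 week (0.840%) lies far above the crush female (0.127%), while both PSNL samples of 1 week (0.328% and 0.406%) lie above both sham samples.

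In the values that follow, sham is given as male then female, PSNL as female then male, and crush as female then male. Among the genes that feed back on the pathway, Irf7, a transcription factor that amplifies interferon production, was at 19.8 and 12.1 CPM in sham, 111 and 175 CPM after PSNL and 12.1 and 302 CPM after crush. Its levels after PSNL were above both sham samples, and after crush only the male was. Stat2, a transcription factor of type I interferon signalling, was at 26.4 and 36.3 CPM in sham, 50.7 and 41.7 CPM after PSNL and 36.8 and 153 CPM after crush. Irf9, which binds DNA in the same complex, was at 42.8 and 52.5 CPM in sham, 66.0 and 63.5 CPM after PSNL and 43.1 and 107 CPM after crush. Usp18, which removes ISG15 from proteins and dampens receptor signalling, was at 9.88 and 8.07 CPM in sham, 18.1 and 29.8 CPM after PSNL and 9.44 and 86.2 CPM after crush. All 4 genes showed the same order, with the crush female within or near the sham values and the crush male highest.

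The IFIT proteins bind foreign RNA and block its translation. Ifit1 was at 11.5 and 16.1 CPM in sham, 36.6 and 40.9 CPM after PSNL and 2.70 and 80.0 CPM after crush. Ifit3 was at 1.65 and 0 CPM in sham, 24.9 and 39.1 CPM after PSNL and 1.35 and 142 CPM after crush. Ifit2 had no UMI among the 854960 UMIs of both sham samples, which allows up to 3.51 CPM over the group (3 counts), and was at 12.9 and 22.2 CPM after PSNL, at least 3.67-fold and 6.33-fold higher than that limit. After crush Ifit2 had 1 UMI in the female and 746 UMIs in its male counterpart, which lay at least 60.1-fold above the sham limit. Ifit3b likewise had no sham UMI and was at least 1.95-fold and 2.88-fold above the limit after PSNL and at least 9.10-fold above it in the crush male. The 4 genes summed to 13.2 and 16.1 CPM in sham, 81.3 and 112 CPM after PSNL, 4.49 CPM in the crush female and 465 CPM in the crush male.

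Oligoadenylate synthetases make a messenger that activates RNase L, and their relatives Oasl1 and Oasl2 act on RNA sensing and interferon production without that enzyme activity. Oasl2 was at 18.1 and 28.2 CPM in sham, 96.2 and 103 CPM after PSNL and 20.7 and 295 CPM after crush. Oas3 was at 18.1 and 0 CPM in sham, 39.8 and 43.3 CPM after PSNL and 8.54 and 111 CPM after crush. Oasl1 and Oas1a showed the crush male highest too, at 49.2 and 24.3 CPM. Sensors of foreign nucleic acid come before the interferon signal and are also induced by it. Ifih1 (MDA5, which binds long double-stranded RNA) was at 18.1 and 24.2 CPM in sham, 46.3 and 43.3 CPM after PSNL and 31.0 and 98.9 CPM after crush. Ddx58 (RIG-I, which reads RNA ends) was at 23.1 and 24.2 CPM in sham, 37.8 and 47.2 CPM after PSNL and 20.7 and 120.4 CPM after crush. Zbp1, which binds left-handed nucleic acid and can start cell death, was at 21.4 and 24.2 CPM in sham, 73.6 and 117 CPM after PSNL and 22.0 and 182 CPM after crush. Dhx58, which modulates both RNA sensors, ranged at 1 week from 9.88 to 24.2 CPM outside the crush male and was at 58.0 CPM in it.

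The Ifi200 (PYHIN) family codes for nuclear and cytosolic DNA-binding proteins. Ifi204 was at 52.7 and 48.4 CPM in sham, 171 and 198 CPM after PSNL and 41.8 and 324 CPM after crush. Ifi205 was at 11.5 and 12.1 CPM in sham, 59.1 and 134 CPM after PSNL and 19.3 and 89.0 CPM after crush and was one of the few members at a higher level in the PSNL male than in the crush male. Ifi207 had a high level throughout, at 130.1 and 149 CPM in sham, 196 and 215 CPM after PSNL and 96.6 and 390.4 CPM after crush. Ifi206, Ifi209, Ifi211 and Ifi213 were highest in the crush male, at 93.8, 310.1, 202 and 114 CPM. The 7 genes summed to 285 and 323 CPM in sham, 685 and 901 CPM after PSNL, 254 CPM in the crush female and 1524 CPM in the crush male.

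Among other antiviral effectors, Isg15, a ubiquitin-like protein attached to newly made proteins, was at 59.3 and 36.3 CPM in sham, 249.8 and 409 CPM after PSNL and 19.3 and 414 CPM after crush. Bst2 (tetherin), which holds budding virus at the cell surface, was at 168 and 121 CPM in sham, 251 and 348 CPM after PSNL and 197 and 1127 CPM after crush. Rsad2 (viperin), which makes a chain-terminating nucleotide, was at 8.23 and 8.07 CPM in sham, 115 and 109.7 CPM after PSNL and 6.29 and 91.6 CPM after crush. Both PSNL samples were above the crush male for Rsad2. Its neighbour Cmpk2, a mitochondrial nucleotide kinase, had no UMI in sham and was at 18.5 and 20.6 CPM after PSNL, at least 5.27-fold and 5.88-fold above the sham limit, and at 1.80 and 30.0 CPM after crush. Isg20, an RNA exonuclease, was at 16.5 and 0 CPM in sham, 41.8 and 59.3 CPM after PSNL and 4.49 and 60.2 CPM after crush. Ifi44 had no sham UMI, and was at 3.62 and 7.34 CPM after PSNL, 0 CPM in the crush female and 81.1 CPM in the crush male, at least 23.1-fold above the sham limit. Mx1, measured at 1 week only, was at 16.5 and 20.2 CPM in sham, 28.2 and 35.5 CPM after PSNL, and 13.5 and 64.7 CPM after crush.

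The Schlafen genes, regulators of growth and of transfer RNA use, had Slfn5 at 117 and 64.6 CPM in sham, 239.8 and 241 CPM after PSNL and 106 and 766 CPM after crush. Slfn1, linked to the resting state of T cells, was at 47.8 and 16.1 CPM in sham, 101 and 85.1 CPM after PSNL and 13.5 and 166 CPM after crush. Slfn8 was at 159 CPM in the crush male and from 21.1 to 51.8 CPM elsewhere at 1 week. Parp9 and Parp14, which act in ADP-ribosylation, reached 80.6 and 265 CPM in the crush male, against at most 39.8 and 112 CPM in the other 5 samples of 1 week. Trim30a, a ubiquitin ligase that restrains inflammatory signalling, was at 114 and 96.9 CPM in sham, 198 and 171 CPM after PSNL and 86.7 and 465 CPM after crush, and Ms4a4c, a membrane protein of the MS4A family, at 114 and 68.6 CPM in sham, 198 and 276 CPM after PSNL and 88.1 and 422 CPM after crush. Rtp4, Xaf1, Phf11b and Phf11d were also highest in the crush male, at 150, 150, 237 and 90.2 CPM.

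Gbp2, Gbp3 and Cxcl10 departed from most other members, although Gbp3 too was highest in the crush male. Gbp2, a guanylate-binding protein that attacks membranes around intracellular microbes, was at 32.9 and 16.1 CPM in sham, 27.4 and 22.0 CPM after PSNL and 15.7 and 26 CPM after crush. Gbp3 was at 21.4 and 16.1 CPM in sham, 10.1 and 13.1 CPM after PSNL and 18.4 and 28.0 CPM after crush, lower in both PSNL samples than in both sham samples. Cxcl10, the chemokine that draws in T cells through CXCR3, was at 3.29 and 56.5 CPM in sham, 41.0 and 66.1 CPM after PSNL and 28.3 and 10.5 CPM after crush, and of the 2 crush samples the female had the higher level. The sham values, male then female, rest on few UMIs: 20 and 4 for Gbp2, 13 and 4 for Gbp3 and 2 and 14 for Cxcl10. The guanylate-binding genes and Cxcl10 are the members best known for responding to interferon gamma as well. Any link of this to their levels here was not tested.

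**Figure D2:**
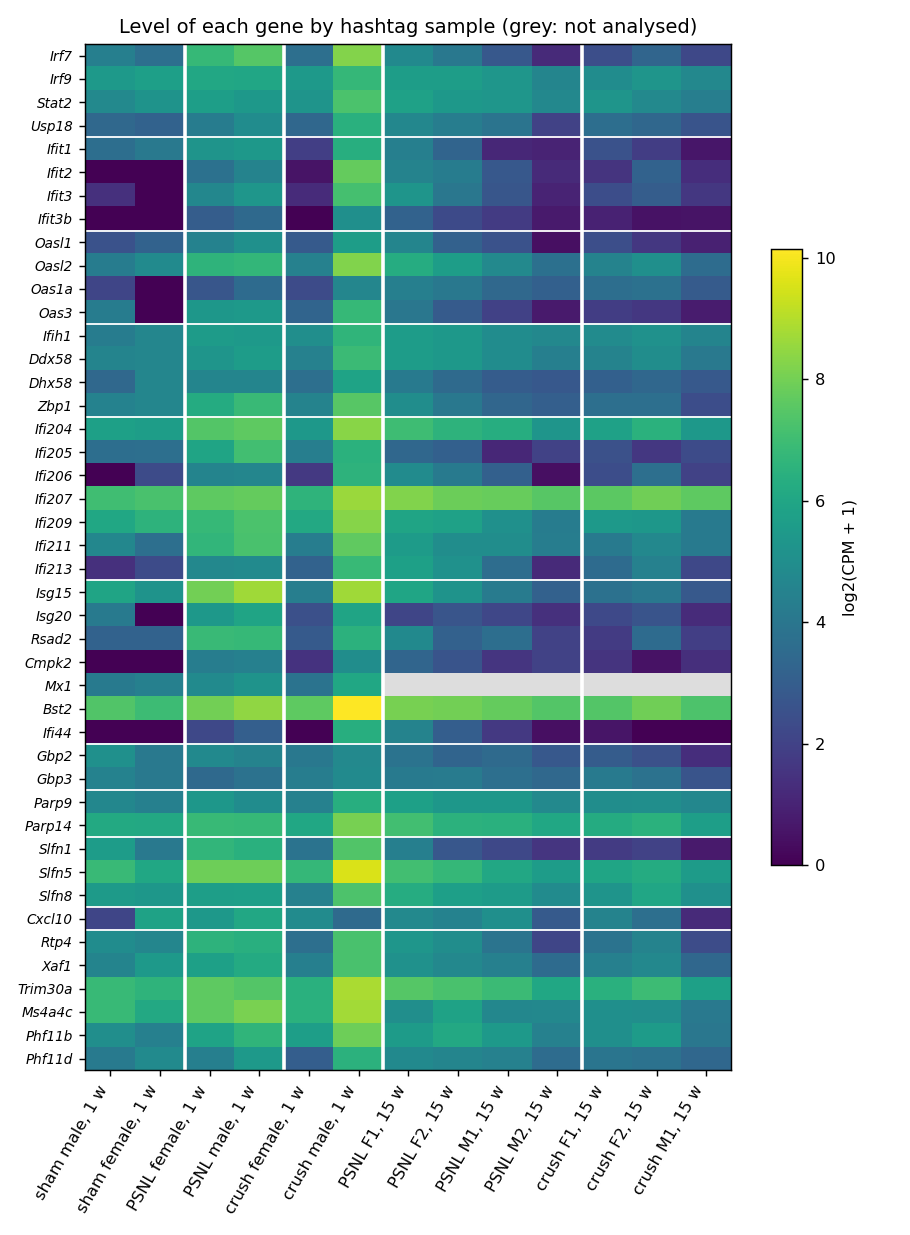
Level of each of the 44 genes (rows, grouped by role) in each of the 13 samples (columns), coloured by log2(CPM + 1) from dark (low) to bright (high), with Mx1 grey at 15 weeks. The column of the crush male of 1 week is the brightest in 39 of 43 members, and the crush female is darker than the 2 PSNL samples of 1 week in most rows.

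In PSNL against sham at 1 week, 38 of the 43 members had both PSNL values above both sham values, against 25.5% of all genes, and 1, Gbp3, was lower. The fitted log2 difference was above 0 for 42 of 43, with a median of 1.68 against 0.10 over all genes tested. None passed the threshold of edgeR's quasi-likelihood test on counts summed per sample (adjusted p under 0.05 over 11487 genes), while 3.20% of all genes were called higher. At an unadjusted p under 0.05 were 10 of 43 members, against 21.5% of all genes. The smallest adjusted p was 0.076, for Ifi205. Of the 6 members with the highest mean CPM, Ifi204 differed by 2.01 (SE 0.829, adjusted p = 0.184) on the log2 scale, Slfn5 by 1.49 (SE 0.731, adjusted p = 0.262) and Ms4a4c by 1.48 (SE 0.643, adjusted p = 0.207). Bst2 differed by 1.19 (SE 0.582, adjusted p = 0.261), Trim30a by 0.94 (SE 0.659, adjusted p = 0.453) and Ifi207 by 0.73 (SE 0.473, adjusted p = 0.415). Cell types moved with this comparison. The monocyte markers summed to 1541 and 1433 CPM after PSNL against 698.3 and 415.7 CPM in sham, with 116 and 176 gated monocytes against 5 and 0. The markers of Spp1 Arg1 macrophages summed to 12600 and 16400 CPM against 2148 and 1489 CPM, and those of resident macrophages to 1617 and 1960 CPM against 2666 and 4569 CPM. The part of these cells, and of the neutrophils given above, in the member differences was not tested.

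All 13 samples share 1 estimate of the spread in this fit, so the distance between the 2 crush samples enters it. Without the crush male, 7 members were called higher after PSNL than in sham, namely Ifi204, Ifi205, Ifi211, Isg15, Bst2, Rsad2 and Cmpk2, against 3.04% of all genes, and the same 7 were called without the crush female (2.95%). DESeq2 called 4 in the full set of samples. PSNL therefore gave higher values in most members. Whether any was called depended on the crush samples in the fit, on the tool and on the settings.

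For crush against sham no member was called in the full fit (0.0696% of all genes were higher). Of 43 fitted differences 41 were above 0, with a median of 1.87 against 0.09 over all genes. An unadjusted p under 0.05 in edgeR's test was found for 14 members, against 11.1% of all genes. The smallest adjusted p was 0.173, for Bst2, with a difference of 2.19 (SE 0.590, adjusted p = 0.173), and Slfn5 differed by 2.21 (SE 0.736, adjusted p = 0.27). DESeq2 called 1 member. This contrast was carried by the male. Without the crush female 10 members were called higher (Ifi204, Ifi207, Ifi211, Ifih1, Ddx58, Stat2, Bst2, Slfn5, Parp9 and Parp14), against 0.674% of all genes, and without the crush male 0 were, with 16 fitted differences above 0 and a median of -0.07.

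Compared directly, PSNL and crush at 1 week differed in no member in the full fit, where 6.67% of genes were called higher after PSNL and 5.78% lower. Neither tool gave a call here, and no member had an unadjusted p under 0.05 in edgeR's test, against 28% of all genes. The median log2 difference was -0.42 with 16 of 43 above 0. The direction depended on which crush sample was kept. Without the crush male 5 members were called higher after PSNL (Ifi207, Ifi211, Isg15, Isg20 and Rsad2, against 1.82% of all genes), and without the crush female 5 were called lower (Stat2, Bst2, Slfn8, Parp9 and Ifit2, against 3.76% of all genes).

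The crush male had the highest level of all 13 samples in 39 of 43 members, against 8.37% of all genes tested. The exceptions were Ifi205 and Cxcl10, highest in the PSNL male, Rsad2, highest in the PSNL female, and Gbp2, highest in the sham male. With 1 CPM added to each value, 40 of 43 members were at least 2-fold and 37 at least 4-fold higher in the crush male than in the crush female, with a median of 7.26-fold. Of all genes tested 3.63% were at least 2-fold higher. The same ratio reached 2-fold in 2 of 43 members between the PSNL male and female (1.95% of all genes, median of members 1.24-fold) and in 5 of 43 between the sham male and female (19.3% of all genes at the lower depth of sham, median 1.02-fold). With 1 sample on each side these ratios have no replicate check, and the intervals below cover counting error only.

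Irf7 was higher in the crush male by 24.9-fold (95% interval 17 to 38.0), Isg15 by 21.4-fold (95% interval 15.8 to 29.7) and Ifit1 by 29.7-fold (95% interval 13.5 to 81.5). Ifi206 was higher by 41.8-fold (95% interval 17.7 to 129.5) and its near copy Ifi213 by 14.1-fold (95% interval 8.82 to 24.1). For Ifit2, with 746 UMIs against 1, the interval of the ratio ran from 84.0 to 18560, and for Ifit3, with 504 against 3, from 36.0 to 514. Ifit3b and Ifi44 had no UMI in the crush female and were at least 23.7-fold and 60.2-fold higher in the male (limit of 3 counts in the female library).

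The members with high counts in every sample differed less. Bst2 was higher by 5.71-fold (95% interval 5.18 to 6.32), Slfn5 by 7.26-fold (95% interval 6.35 to 8.33) and Ifi207 by 4.04-fold (95% interval 3.5 to 4.69). Of the genes of signalling and sensing, Stat2 was higher by 4.15-fold (95% interval 3.29 to 5.30), Ifih1 by 3.19-fold (95% interval 2.46 to 4.19) and Irf9 by 2.49-fold (95% interval 1.99 to 3.15). Cxcl10 went the other way, with a ratio of 0.369-fold (95% interval 0.239 to 0.563), and Gbp2 was higher by 1.65-fold (95% interval 1.11 to 2.52).

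**Figure D3:**
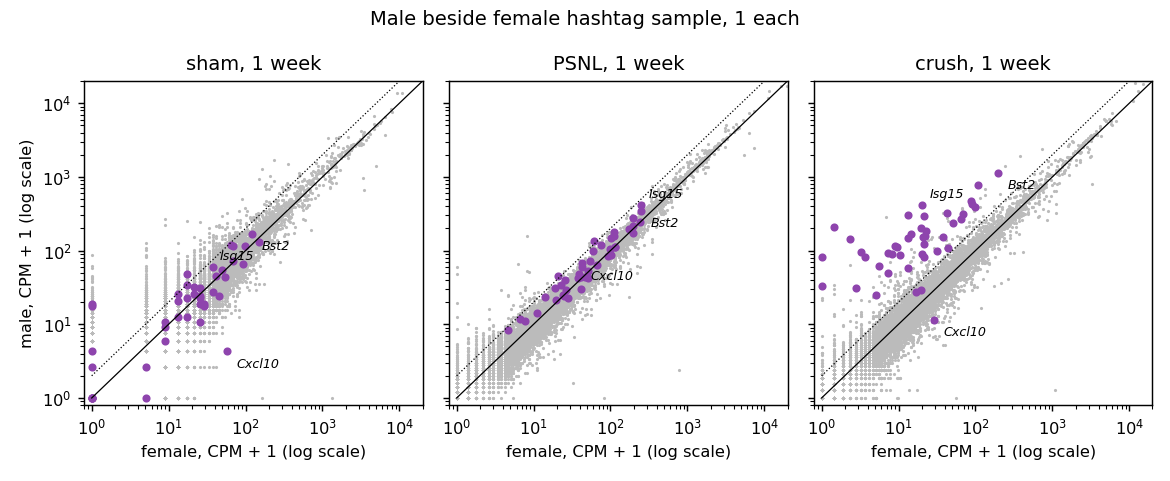
Level in the male (vertical) against the female (horizontal) of the same surgery at 1 week, both as CPM + 1 on log axes, for members (purple) and all genes tested (grey), with equality as a solid line and a 2-fold higher level in the male as a dotted line. After crush 40 of 43 members lie at or above the dotted line, whereas after PSNL 2 of 43 and in sham 5 of 43 do.

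The crush male, the crush female and the sham male were processed in the same library, and the latter had 0.127% and 0.146% of member UMIs. Depth was similar in both crush samples, with a median of 5202 UMIs per cell in the male and 5548 in the female, and the median mitochondrial share was 2.54% and 3.20%. The plasmacytoid dendritic cell markers, whose cells are known for type I interferon, summed to 37.3 CPM in the male and 36.8 CPM in the female, with Klk1 and Ly6d at 0 in both. The 7 markers of T and NK cells summed to 69.5 and 64.7 CPM, with Cd3d, Cd3e and Trac at 0 in the female and all 7 detected in the male. The monocyte markers summed to 1735 CPM in the male and 761.1 CPM in the female, and the neutrophil markers to 1970 and 1003 CPM. Those of conventional dendritic cells summed to 979.7 and 662.7 CPM. In the other direction, the markers of Spp1 Arg1 macrophages summed to 1938 and 4013 CPM, of migratory dendritic cells to 129.2 and 512.2 CPM and of resident macrophages to 392.3 and 674.4 CPM. The part of this mixture in the difference across all cells was not tested. The larger share of members was also present within single marker gates, as given below.

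Single cells show how the member UMIs were spread. The median cell of the crush male had 0.713% of its UMIs from members, against 0.105% in the crush female, 0.114 and 0.125% in sham, and 0.222 and 0.247% after PSNL. With each cell thinned to 2000 UMIs, 70.8% of the crush male's cells (352 of 497; 95% exact binomial interval 66.6 to 74.8%) had at least 10 member UMIs, here called member-rich (67.3% without thinning, over 606 cells). In the crush female the value was 3.51% (1.70 to 6.36%), in the sham male 1.15% (1 cell of 87) and in the sham female 2.13% (1 cell of 47). After PSNL it was 23.4% in the female (19.3 to 27.9%) and 26.4% in the male (23.2 to 29.8%).

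In the crush male the member UMIs were spread over a larger part of the cells than after PSNL. The 10% of cells with the largest share of UMIs from members held 23.4% of all member UMIs in the crush male. In the PSNL female and male they held 34.2 and 35.5%. The crush male was close to the crush female in this measure (23.8%), and the sham male and female were at 31.6 and 20.4%. At 15 weeks member-rich cells made up 8.66, 6.47, 2.38 and 0% of PSNL cells (F1, F2, M1 and M2; the last is 0 of 352, upper limit 1.04%) and 2.32, 4.57 and 1.39% of crush cells (F1, F2 and M1). In PSNL F1 these top 10% of cells held 47.5% of the member UMIs, the largest value of any sample. Cells under 2000 UMIs were left out, which removed 47 of 332 cells in the crush female, 109 of 606 in the crush male, 138 of 532 in the PSNL female and 150 of 874 in the PSNL male. Thinning to 1000 UMIs with at least 5 from members gave 71.2% in the crush male, 6.52% in the crush female, 5.83% in the sham male and 6.35% in the sham female.

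**Figure D4:**
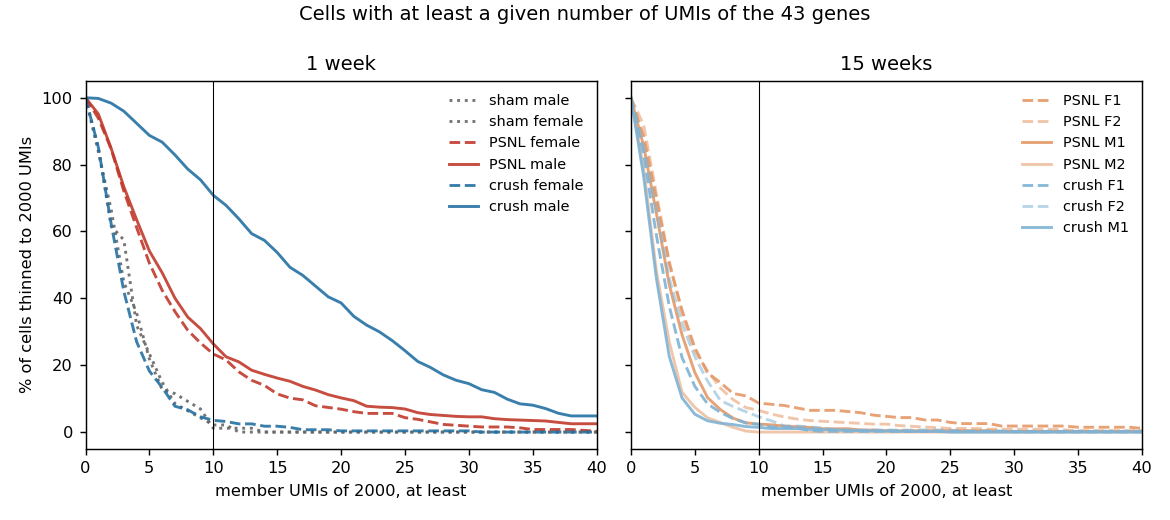
Share of cells (percent, vertical) with at least a given number of member UMIs after thinning to 2000 UMIs per cell (horizontal), 1 line per sample, at 1 week on the left and 15 weeks on the right, with a vertical line at 10 UMIs. At that line the crush male is at 70.8% and the PSNL samples of 1 week at 23.4 and 26.4%, above the sham samples and the crush female (1.15 to 3.51%).

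To ask in which cells the members were expressed, cells were placed in 8 gates by scores over marker genes, none of which is a member. The gates were neutrophil (S100a8, S100a9), monocyte (Ly6c2, Plac8), eosinophil (Ccr3, Siglecf), resident macrophage (Cd163, Lyve1), microglia-like macrophage (Cx3cr1, Tmem119), Spp1 Arg1 macrophage (Spp1, Gpnmb), conventional dendritic cell (Cd209a, Flt3) and migratory dendritic cell (Ccr7, Fscn1), each with further markers. A gate is a range of a score and not a proven type, and 1004 of the cells fell in none. Sall1, a defining gene of brain microglia, was at 0 in all 13 samples, and the name of that gate refers to its other markers. Only sums of at least 20 cells per sample and gate were used.

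At 1 week the share of member UMIs was higher in the crush male in each gate with at least 20 cells of both crush samples. In monocytes it was 0.961% in the male and 0.219% in the female, in microglia-like macrophages 1.21 and 0.162%, in conventional dendritic cells 0.719 and 0.145%, and in Spp1 Arg1 macrophages 0.681 and 0.0975%. These are ratios of 4.40, 7.44, 4.95 and 6.98, and the ungated cells gave 7.82 (0.712 against 0.0910%). The gap between the 2 crush samples thus ran through all of these gates. In the crush male 85.7% of microglia-like, 79.6% of monocyte, 67.8% of conventional dendritic and 54.6% of Spp1 Arg1 cells were member-rich, against 3.13, 12, 4.76 and 0% in the female.

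After PSNL the gates differed from each other. Monocytes had shares of 0.416% in the female and 0.721% in the male, and neutrophils of 0.463 and 0.507%. Spp1 Arg1 macrophages, the gate with the most PSNL cells in the male, had 0.265 and 0.221%. Conventional dendritic cells had 0.367 and 0.497%. Migratory dendritic cells had 0.157% in the female and 0.531% in the male, so the 2 samples differed most there. Member-rich cells made up 30.2 and 51.8% of monocytes, 29.6 and 32.2% of neutrophils and 19.4 and 10.2% of Spp1 Arg1 macrophages. Resident macrophages of sham nerves had 0.133% in the male and 0.152% in the female.

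**Figure D5:**
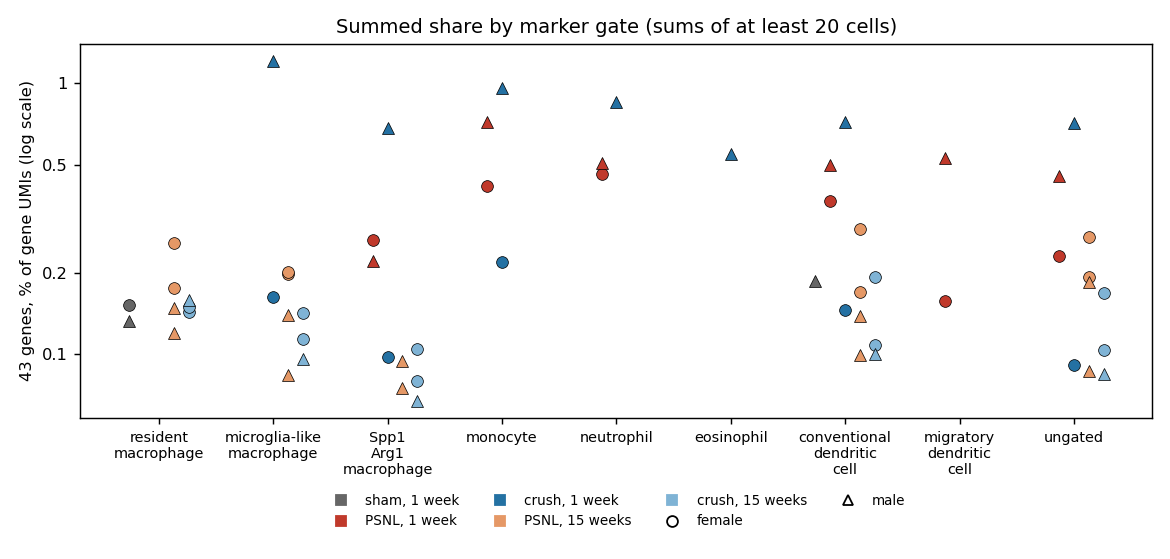
Share of UMIs from the 43 members (percent, vertical, log scale) in each marker gate (horizontal), 1 point per hashtag sample with at least 20 cells of the gate, coloured by surgery and time, with circles for females and triangles for males. At 1 week the crush male lies above the other samples in each gate where it has a point with others, and at 15 weeks the points of the 3 macrophage gates lie between 0.0673 and 0.256%.

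Each gate was then set against the mean of the other gates of the same time, in a fit with a term for each sample. Not every gate had a sum in every sample. At 1 week the migratory dendritic gate had only PSNL sums, the microglia-like gate only crush sums and the resident gate 1 sum. Such gates are in part compared with gates of other samples. The differences of a gene are also linked across gates, since a low level in 1 gate raises the differences of the others. At 1 week 6 of 43 members were higher in monocytes (4.77% of all genes) and 0 were lower. They were led by Ifi205, with a log2 difference of 3.93 (adjusted p = 0.00969), Ms4a4c, with 2.35 (adjusted p = 0.000764), and Ifi211, with 1.57 (adjusted p = 0.000561). Ifi209, Ifi204 and Phf11b followed, at 1.25, 1.12 and 1.16. Of these 6 genes 4 belong to the Ifi200 family, and without the crush male 5 of 41 were called.

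Neutrophils had another selection. Here 10 members were higher (14.9% of all genes) and 5 lower (8.78%). Rsad2 was higher by 3.96 (adjusted p = 3.22e-05), Ifit1 by 3.28 (adjusted p = 2.77e-05) and Isg15 by 2.14 (adjusted p = 9.93e-05). Slfn1, Isg20, Gbp2, Oas3 and Rtp4 were higher by 2.49, 2.25, 2.04, 2.02 and 1.77. Phf11b and Bst2 were lower, by -2.31 (adjusted p = 0.000507) and -1.89 (adjusted p = 0.000252), as were Ifi211, Ifi209 and Phf11d. The median cell of this gate had 1935 UMIs, against 5401 in the monocyte gate. Without the crush male 11 of 41 were higher and 4 lower.

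In conventional dendritic cells 4 members were higher (11.2% of all genes) and 3 lower (7.66%), with Ms4a4c at 2.27 (adjusted p = 6.65e-05) and Ifi205 at 2.98 (adjusted p = 0.0174) among the higher, and without the crush male 3 of 41 were higher and 3 lower. Migratory dendritic cells had 2 higher (7.13%), Gbp2 by 3.48 (adjusted p = 6.24e-05) and Phf11b by 2.09 (adjusted p = 0.000123), and 2 lower (4.26%), Ifi207 by -1.68 and Ifi204 by -1.52, against 3 and 2 of 41 without the crush male. Bst2 and Ifi204 were the 2 members higher in microglia-like macrophages (2.09%), by 1.91 and 1.39, a gate that rested on the 2 crush samples and could not be fitted without the male. Spp1 Arg1 macrophages had 0 members higher and 7 lower (6.23% of all genes), with Isg20 at -3.01 (adjusted p = 0.0199), Slfn1 at -1.50 (adjusted p = 0.0482) and Stat2 at -1.29 (adjusted p = 0.00331), and without the crush male 8 were lower.

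At 15 weeks, when 31 members could be tested, conventional dendritic cells had 15 higher (24.4% of all genes) and 4 lower (22.9%). Ms4a4c was higher by 3.87 (adjusted p = 8.79e-16), Cxcl10 by 2.46 (adjusted p = 0.00122), Ifi206 by 2.08 (adjusted p = 6.51e-05) and Phf11b by 1.87 (adjusted p = 2.56e-09). In resident macrophages 10 were higher (18.4%) and 1 lower (18.9%). The higher ones included Ifi213 by 1.98 (adjusted p = 0.000187), Ifit3 by 1.59 (adjusted p = 0.00164) and Oasl2 by 1.13 (adjusted p = 0.000251), while Cxcl10 was lower by -3.23 (adjusted p = 0.00654). Bst2 alone was higher in microglia-like macrophages, by 0.48 (10.7% of all genes). The Spp1 Arg1 gate, lower in several of these genes as given next, is part of the mean in each of these comparisons.

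In Spp1 Arg1 macrophages members were called lower and none higher at both times. At 15 weeks 14 of 31 were lower there (19.4% of all genes) and 0 higher, among them Ifi213 by -4.81 (adjusted p = 1.38e-05), Ifi206 by -4.38 (adjusted p = 1.5e-05), Ms4a4c by -3.81 (adjusted p = 4.54e-09) and Ifit3 by -2.69 (adjusted p = 0.00285). The same gate had the lowest shares of 15 weeks, from 0.0673 to 0.105% over 5 samples, with PSNL F1 and F2 missing. Resident macrophages ranged from 0.120 to 0.256% and microglia-like macrophages from 0.0838 to 0.201% over 7 samples each.

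At 15 weeks, in the order F1, F2, M1 and M2 for PSNL and F1, F2 and M1 for crush, Irf7 was at 27.1, 15.8, 5.84 and 1.33 CPM after PSNL and 4.47, 9 and 3.6 CPM after crush. Isg15 was at 61.1, 35.5, 17.8 and 7.96 CPM after PSNL and 12.9, 15.9 and 6.15 CPM after crush, and Ifit3 was at 37.8, 15.3, 5.60 and 0.995 CPM after PSNL and 4.24, 6.86 and 2.09 CPM after crush. Bst2 was at 269, 249.7, 213 and 172 CPM after PSNL and 170.4, 246 and 157 CPM after crush. For each of these genes the PSNL and the crush samples overlapped, and PSNL F1 had the highest level.

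No member was called between PSNL and crush at 15 weeks, where 0 of all 11487 genes were called (0%), but the fitted difference was above 0 for 43 of 43, with a median of 0.61 against -0.01 over all genes. DESeq2 called none either, and 2 of 43 members had an unadjusted p under 0.05, against 4.80% of all genes. Every PSNL sample lay above every crush sample in 1 of 43 members (4.40% of all genes). Within microglia-like macrophages 36 of 36 members tested were above 0 too, with a median of 0.69 and 0 called, within conventional dendritic cells 32 of 41, with a median of 0.56, and within resident macrophages 20 of 30, with a median of 0.15. In Spp1 Arg1 macrophages 16 of 36 were above 0, with a median of -0.06. In that gate PSNL rested on M1 and M2 only, since F1 and F2 had under 20 cells. Crush had F1, F2 and M1 there, so injury and sex cannot be fully told apart in it. No member was called in any of these gates.

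From 1 to 15 weeks 21 of 43 members were called lower after PSNL (27.0% of all genes), with a median log2 change of -1.71, and 22 of 43 had all PSNL samples of 15 weeks below both of 1 week (20.3% of all genes). Ifi205, at 59.1 and 134 CPM at 1 week, was at 9.33, 7.65, 1.22 and 2.98 CPM at 15 weeks, a change of -4.71 (SE 0.604, adjusted p = 3.82e-05). Ms4a4c changed by -3.21 (SE 0.481, adjusted p = 0.000127), Isg20 by -4.27 (SE 0.704, adjusted p = 0.000254) and Slfn1 by -4.11 (SE 0.794, adjusted p = 0.000802). Rsad2 changed by -3.67 (SE 0.744, adjusted p = 0.00112), Zbp1 by -3.10 (SE 0.644, adjusted p = 0.00135), Isg15 by -3.91 (SE 0.814, adjusted p = 0.00136) and Irf7 by -4.02 (SE 0.882, adjusted p = 0.00193). In these 8 members each PSNL sample of 15 weeks lay below both of 1 week. The mixture of cells moved with the time. The neutrophil markers summed to 13880 and 4728 CPM after PSNL at 1 week and to 175.2, 173.8, 188.7 and 123 CPM at 15 weeks. The monocyte markers summed to 1541 and 1433 CPM at 1 week and 456.9, 503, 363.3 and 286.5 CPM at 15 weeks, and the monocyte gate held 116 and 176 cells against 6, 3, 5 and 1. Ifi205 and Ms4a4c are among the 10 leading genes of the monocyte gate, and the part of these cells in the lower member levels was not tested.

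Several members with high counts changed less. Slfn5 fell by 1.87 (SE 0.536, adjusted p = 0.00984) and Ifi204 by 1.57 (SE 0.553, adjusted p = 0.0278). Bst2 (-0.85 (SE 0.448, adjusted p = 0.125)), Trim30a (-0.97 (SE 0.490, adjusted p = 0.108)) and Ifi207 (-0.26 (SE 0.366, adjusted p = 0.561)) did not pass the threshold. The count was 13 without the PSNL male of 1 week (17.8% of all genes) and 30 without the crush male (26.0%). Within Spp1 Arg1 macrophages 22 of 36 members were lower at 15 weeks after PSNL (14.3% of all genes), and 28 of 37 without the crush male. The samples of 15 weeks in this gate were the males M1 and M2 only, set against a female and a male of 1 week. Time and sex cannot be fully told apart in it. Within conventional dendritic cells 11 of 41 were lower (10.1%), and among the ungated cells 4 of 42 (9.58%).

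After crush 39 of 43 members were called lower at 15 weeks (18.5% of all genes), with a median of -2.78. Ms4a4c changed by -3.54 (SE 0.537, adjusted p = 0.000268), Ifi205 by -4.03 (SE 0.663, adjusted p = 0.000484) and Slfn1 by -6.15 (SE 1.02, adjusted p = 0.000512). Oas3 changed by -5.60 (SE 1.03, adjusted p = 0.000995), Gbp2 by -2.71 (SE 0.478, adjusted p = 0.000783), Zbp1 by -3.82 (SE 0.732, adjusted p = 0.00135) and Slfn5 by -3.09 (SE 0.594, adjusted p = 0.00137). Irf7 changed by -5.19 (SE 1.04, adjusted p = 0.00182) and Bst2 by -2.02 (SE 0.479, adjusted p = 0.00508). The count rested on the crush male. Without it 4 members were called lower (Ms4a4c, Ifi205, Slfn1 and Gbp2; 9.48% of all genes) and 1, Ifi207, higher (15.5%). Within microglia-like macrophages, which include that male among 2 samples of 1 week, 35 of 36 were lower (11.9% of all genes), and this was not tested without it.

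The change from 1 to 15 weeks was not shown to differ between the injuries. No member was called in the test of PSNL minus crush (3.46% of all genes were higher), 40 of 43 were above 0, with a median of 0.99, and the smallest adjusted p was 0.0666, for Ifi44. Without the crush female 9 were called higher (2.90% of all genes), and without the crush male 0 were, with 3 above 0. Since all samples of 1 time point share batch and software version, time and batch cannot be told apart.

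A difference between the sexes stood out at 15 weeks, in the direction opposite to that of crush at 1 week. This comparison was added after the values were seen. With the injury as a term in the fit, 41 of 41 members tested had a higher level in the 4 female than in the 3 male samples, with a median log2 difference of 0.94 against 0.00 over all genes. Of these 34 had an unadjusted p under 0.05, against 14.3% of all genes, and 3 passed the adjusted threshold (0.210% of all genes were called higher in females).

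Ifit1 was at 19.5, 8.74, 1.22 and 0.995 CPM after PSNL and 4.94, 2.57 and 0.523 CPM after crush, a female minus male difference of 3.21 (edgeR, adjusted p = 0.0298). Ifi209 was at 60.2, 54.1, 32.6 and 18.2 CPM after PSNL and 43.8, 40.7 and 16.5 CPM after crush, a difference of 1.16 (adjusted p = 0.038). Zbp1 was at 30.1, 15.8, 9.25 and 7.29 CPM after PSNL and 12, 12 and 4.25 CPM after crush, a difference of 1.38 (adjusted p = 0.0497). In 7 of 43 members every female lay above every male (4.15% of all genes) and in 0 below. No member was called without crush M1 or without PSNL M2, where 4 of 11095 and 2 of 10919 genes were higher in females, whereas 8 were called without PSNL M1, where 75 of 10679 genes were.

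Males and females were present in both libraries of 15 weeks. The mixture of cells differed, however, with 12 and 14 Spp1 Arg1 cells in PSNL F1 and F2 against 45 and 64 in M1 and M2, and 46 and 22 in crush F1 and F2 against 610 in M1. Within microglia-like macrophages 28 of 28 members were higher in females, with a median of 0.70, 20 at an unadjusted p under 0.05 (8.42% of all genes) and 2 called. Within conventional dendritic cells 24 of 27 were, with a median of 0.70 and 9 at an unadjusted p under 0.05 (4.78% of all genes). Within resident macrophages 23 of 25 were, with a median of 0.36 and 2 at that level, against 5.8% of all genes. No member was called in the last 2 gates.

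Of the ligands, transcripts were almost absent. Ifna1, Ifna2, Ifna4, Ifnl2 and Ifnl3 had 0 UMIs in all samples. Ifnb1, the gene of interferon beta, had 9 UMIs, of which 5 were in the PSNL female, 2 in PSNL F1 and 2 in crush F2. Ifng had 10 UMIs in 6 samples and Ifnk had 10 in 6. No Ifnb1 UMI was found in the crush male. At these counts no comparison between groups was possible, and cells outside the CD45+/CD11b+ sort were not analysed here.

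The receptors were well detected. Ifnar1 was at 112 and 121 CPM in sham, 132 and 119 CPM after PSNL and 82.2 and 114 CPM after crush, and Ifnar2 at 74.1 and 109 CPM in sham, 151 and 148 CPM after PSNL and 93.5 and 123 CPM after crush. Of the 4 receptor genes Ifngr2, a chain of the interferon gamma receptor, was called higher in PSNL than in sham, with 1.06 (SE 0.255, adjusted p = 0.0336), and none was called after crush. From 1 to 15 weeks Ifnar1 changed by -0.49 (SE 0.174, adjusted p = 0.0291) after PSNL, and Ifnar2 by 0.91 (SE 0.207, adjusted p = 0.00398) after crush. None of the 4 was at least 2-fold higher in the crush male than in the crush female (median 1.35-fold).

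Further genes of the pathway were taken from lists chosen with earlier results of these data known. In PSNL against sham 2 of 29 further interferon-stimulated genes were called higher (Ifitm2, with 1.39 (SE 0.243, adjusted p = 0.00789), and Nmi, with 1.52 (SE 0.381, adjusted p = 0.0384)), 3 of 10 genes of MHC class I presentation (B2m, H2-K1 and H2-D1) and 1 of 16 genes of nucleic acid sensing (Tlr13). In JAK-STAT signalling, the interferon regulatory factors and the interferon gamma-induced genes 0 of 7, 0 of 5 and 0 of 11 were called by edgeR. Over all genes 3.20% were called higher in this contrast. MHC class I is also what the hashtag antibodies bind, and a part of this in the assignment of cells was not tested.

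Between the crush male and female, 24 of 29 further interferon-stimulated genes were at least 2-fold higher in the male (median 3.72-fold), as were 7 of 11 interferon gamma-induced genes (3.28-fold) and 4 of 16 sensing genes (1.61-fold). In the JAK-STAT list 2 of 7 were. Of the interferon regulatory factors 0 of 5 were, and of the MHC class I genes 1 of 10 (medians 1.26-fold and 1.58-fold). Over all genes tested 3.63% were at least 2-fold higher in the male. The share of genes past 2-fold was thus larger in the lists of interferon targets than in those of receptors and regulatory factors, which was not tested.

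At 15 weeks, MHC class I genes were lower than at 1 week in 9 of 10 cases after PSNL and 10 of 10 after crush, led by H2-D1 at -1.18 (SE 0.133, adjusted p = 1.29e-05) after PSNL and Psmb8 at -1.26 (SE 0.141, adjusted p = 2.66e-05) after crush. The further interferon-stimulated genes were lower in 12 of 29 and 23 of 29. Over all genes 27.0% were called lower after PSNL and 18.5% after crush. The feedback inhibitors Socs3 and Socs1 were among 4 of 7 JAK-STAT genes lower after PSNL, at -4.01 (SE 0.592, adjusted p = 0.000112) and -2.53 (SE 0.499, adjusted p = 0.000928), and among 3 of 7 after crush. In nucleic acid sensing 5 of 16 were lower and 5 higher after PSNL, and 6 lower and 4 higher after crush, with Myd88 lower at -2.49 (SE 0.208, adjusted p = 1.25e-06) and -2.11 (SE 0.224, adjusted p = 1.7e-05). Of all 11487 genes 3361 were called higher after PSNL and 2760 after crush.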

How the data were processed

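The authors deposited raw counts (UMIs per gene and cell barcode, as called by Cell Ranger, with hashtag counts in the same matrix). The submitters' notes list GRCm38 as the build, with Cell Ranger 6.0.0 and, for the cells, Seurat 5.1.0. File headers give Cell Ranger 6.0.0 at 1 week and 7.0.0 at 15 weeks, and whether intronic reads were counted is not given in the sources used here.

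Barcodes were assigned to a hashtag by a threshold in the gap that separates unlabelled from labelled barcodes. Multiply tagged barcodes were left out as doublets (26.8 and 28.9% at 1 week, 1.8 and 5.2% at 15 weeks), and cells with at least 500 genes and at most 10% mitochondrial UMIs were kept. Libraries had 1920 to 2675 barcodes. Counts were summed per hashtag sample, filtered (filterByExpr), normalised by TMM and tested with edgeR 4.0.16 (quasi-likelihood, R 4.3.3) in a single fit of the 13 samples (residual degrees of freedom 8, prior 4.54) and Benjamini-Hochberg adjustment over all genes. Scripts were tested on simulated data. HTODemux (Seurat 5.3.0), DESeq2 1.42.0, other filters and each sample left out were alternatives. Intervals are exact 95% and cover counting error only.

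All 44 members could be named, with full statistics for at most the 8 smallest adjusted p per contrast among those called and for the 6 with the highest mean CPM, and list genes for at most 3 per list and contrast, beside ligands and receptors. Members and lists were chosen with earlier results of these data known, and the comparison of females with males at 15 weeks, the gates without the crush male and the spread without both crush samples of 1 week were added after seeing the data. Replicate samples were not stated to come from separate mice.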

Additional observations from a re-analysis of the deposited data

Results flagged for a closer look

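Barcodes with more than 1 hashtag entered no comparison, and in both libraries of 1 week their share of member UMIs lay above that of the sham samples (0.146% at most). It was 0.351% in the library of crush and sham, over 386 cells, and 0.303% in the library of PSNL and sham, over 621 cells. Each library of 1 week held an injured male and female beside 1 sham sample, and both values lay between the lowest and the highest sample of their own library. After thinning to 2000 UMIs, 29.0 and 18.6% of these barcodes were member-rich. Of 44 values examined for a sample far from the rest of its group (groups of 4 samples, PSNL at 15 weeks) 0 met the criterion, and the crush pair of 1 week, with 2 samples, could not be examined in this way.

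The sexes moved in opposite directions after crush at the 2 times. At 1 week the share of member UMIs was higher in the male by 0.713 percentage points, while at 15 weeks the male was below both females, with a male minus female difference of -0.0494 percentage points. With 1 male and 1 female at 1 week this contrast between times was not tested.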

How the results depend on the processing

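In PSNL against sham, in which no member was called, 6 were called without a filter on low counts, 1 with the replicate block, 6 with the spread taken without both crush samples of 1 week (added after seeing the data), 4 by DESeq2, and 0 to 7 when any 1 sample was dropped. The counts of crush against sham were 3 without a filter, 1 by DESeq2 and 0 to 10 with a sample left out. In PSNL against crush at 1 week they were 0 to 5 with a sample left out. Members lower at 15 weeks numbered 13 to 30 after PSNL and, called in either direction, 5 to 42 after crush with a sample left out. In the difference of these changes 1 was called without the 6% of barcodes with the highest UMI totals, 2 without a filter, 1 with the replicate block and 0 to 9 with a sample left out. For females against males at 15 weeks the range was 0 to 8. Without the crush male of 1 week, 2 of the log2 changes followed under each alternative turned direction: Ifi207 at 15 weeks against 1 week was 0.90 (range -1.10 to 0.90 with a sample left out) and Ifi204 was 0.30 (-2.64 to 0.30). The mean sham share was 0.161% with HTODemux, 0.162% without Gm42418, the gene with the most UMIs at 1 week (72420 to 184200 CPM, against 13290 to 23570 CPM at 15 weeks), and 0.154% without the 6% highest UMI totals. Of the other values, 718 log2 changes kept their side of the threshold and 40 mean shares moved by less than the SD of their group. A mean with 1 sample left out cannot move by more than that SD, so such means are no check. For crush at 1 week they were 0.127 and 0.840%. A further 20 log2 changes were classed as stronger and 13 as weaker under an alternative. Of the counts of members called, 145 were classed as the same and 22, with those above, as moved. For the percentage of member-rich cells 8 values were classed as the same and 5 as moved. The causes were not tested. Shared replicate numbers did not pair the samples: at 15 weeks the F1, F2 and M1 pairs had correlations of their deviations of 0.082, 0.161 and 0.113, against -0.354 to 0.255 for other pairs, and at 0.000263 to 0.023 at 1 week. Depth limited the sham values most, with 64 and 106 cells and 4 members without a UMI.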
